A study of Triticum aestivum with 6 samples.

Results

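Histones H2A and H2B are small proteins of the nucleosome core, around which DNA is wound together with histones H3 and H4. They pair with each other as dimers that enter and leave the nucleosome more readily than H3 and H4 do. Most core histone messages are made while cells copy their DNA, and in a cereal leaf the dividing cells sit mainly at the base of the blade. Plant histone messages carry poly(A) tails, so a library made with poly-T beads captures them.

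In the authors' deposited DESeq2 table, 9 of the 861 listed wheat genes were described as histone H2A or histone H2B and carried that description for the gene itself. They were 6 H2A genes and 3 H2B genes, and they made up 9 of the 232 listed genes with a description of their own. The table holds only genes with an FDR (adjusted p-value) under 0.05, so the 9 genes were selected on that FDR as well as on their description. Their folds and FDR values are therefore a description with no further test. Listed genes were 1.12% of the 76618 tests that the FDR values imply, and genes on the positive side were 0.576%. How many H2A and H2B genes were tested without being listed was not analysed here.

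The study compared leaf samples of winter wheat (Triticum aestivum, breeding line SE15) by sequencing of messenger RNA. In the ultrasound group were 3 seedling samples from seeds sonicated before germination (30 kHz, 70 W, 5 minutes, 4 cm from the head). In the control group were 3 seedling samples from seeds that were not sonicated. Each group began with 100 seeds of 13.6% water content, germinated at 20 °C without light, and was sampled on day 7. The labels call the samples independent but do not say which dishes they were taken from, so the p-values measure only the spread between these samples, which may be technical.

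The tables name the compared groups K1 and US1 and give statistics per gene, so neither a value per library nor a depth can be shown. Which group was divided by which is not stated in the headers. The sign is therefore kept as deposited, and "positive side" means a log2 fold change above 0. Should US1 be the sonicated group and the numerator, this side would be the one with more message after ultrasound, which the headers leave unsaid. Standard errors (SE) and 95% intervals were derived from each fold and its p-value, taken as a two-sided Wald test. In bulk samples, fewer cells of a type and less RNA per cell cannot be told apart.

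All 9 histone H2A and H2B genes lay on the positive side of the authors' deposited table, against 51.2% of all 861 listed genes and 70.3% of those with a description of their own. Their median log2 fold change was 1.59, a ratio of 3.01. For 8 of them the log2 fold change fell between 1.38 and 2.16, ratios of 2.61 to 4.47. The ninth, an H2B gene on chromosome 5A, had a log2 fold change of 7.95. The authors' shrunk log2 fold changes, which pull imprecise estimates toward 0, ran only from 1.10 to 1.41 over all 9 genes.

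**Figure D1:**
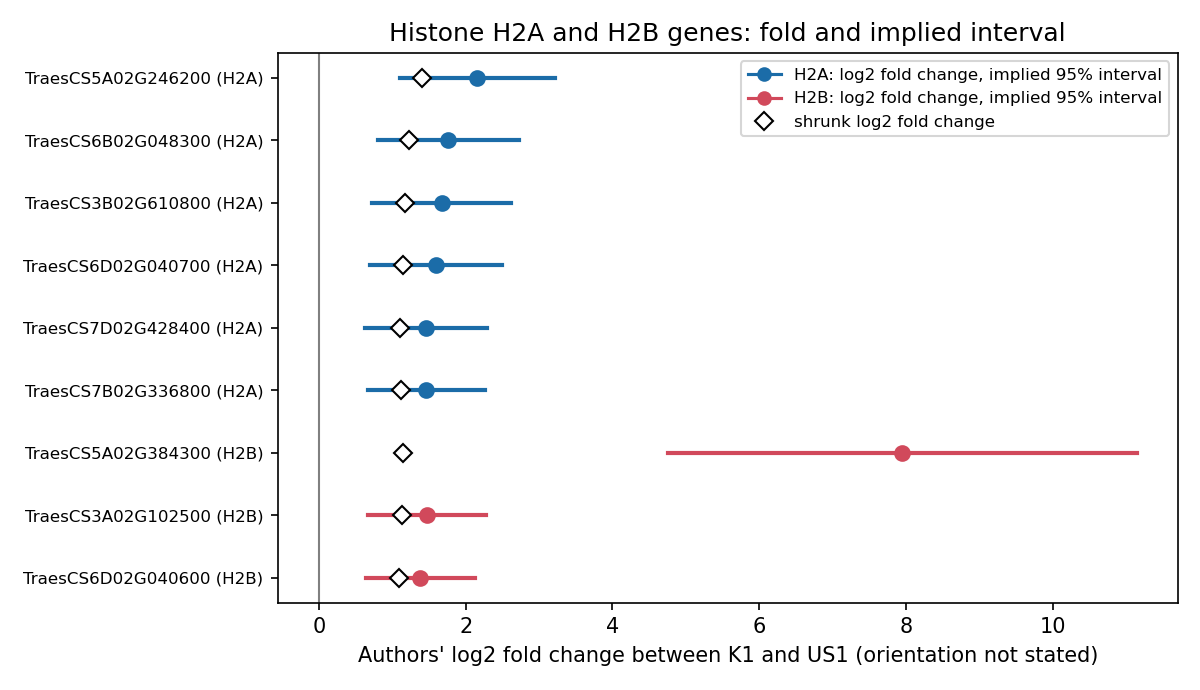
Authors' log2 fold change between K1 and US1 (x axis, orientation not stated) for the 6 H2A genes and 3 H2B genes. Dots are the unshrunk values with lines for the implied 95% interval, and diamonds are the authors' shrunk values. The dots of 8 genes lie between 1.38 and 2.16, the dot of TraesCS5A02G384300 lies at 7.95, and all 9 diamonds lie between 1.10 and 1.41.

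The H2A genes, whose protein exists in plants as the canonical form and as variants, had a median log2 fold change of 1.63 in the authors' deposited table. The highest was TraesCS5A02G246200 (chromosome 5A, 459542680 to 459543159, plus strand), at a log2 fold change of 2.16 (SE 0.54, 95% interval 1.11 to 3.21). Its shrunk value of 1.41 was also the highest of the 9 genes, and its DESeq2 FDR was 0.0116. It was followed by TraesCS6B02G048300 (6B, 28255902 to 28256707, minus strand) at 1.77 (SE 0.49, DESeq2 FDR 0.0368).

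Next came TraesCS3B02G610800 (3B, 829112927 to 829113827, plus strand), with a log2 fold change of 1.67 (SE 0.48). The gene described as histone H2A.1, TraesCS6D02G040700 (6D, 16522413 to 16523266, minus strand), bears the symbol H2A-9 in the file and had 1.59 (SE 0.46). The lowest H2A values were those of TraesCS7D02G428400 (7D, 548781404 to 548782109, minus strand) and TraesCS7B02G336800 (7B, 591723841 to 591724731, plus strand), both at 1.46, with SEs of 0.42 and 0.41. These 4 genes had DESeq2 FDR values of 0.0491, 0.0471, 0.0488 and 0.0361 in the order named. None of the 6 H2A descriptions named the variants H2A.Z, H2A.X or H2A.W, and a description of plain H2A does not say which form is meant.

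The H2B genes held both the highest and the lowest unshrunk fold of the 9 genes in the authors' deposited table. TraesCS5A02G384300 (5A, 582106947 to 582107732, minus strand) stood at 7.95 on the log2 scale (SE 1.63), and its 95% interval ran from 4.76 to 11.1. Its DESeq2 FDR of 0.000587 was the only one of the 9 under 0.01. By unshrunk fold it ranked 2 among the 441 genes on the positive side, and by shrunk fold, at 1.15, it ranked 333.

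For TraesCS3A02G102500 (3A, 66254049 to 66254624, plus strand) the log2 fold change was 1.47 (SE 0.41, DESeq2 FDR 0.0348). TraesCS6D02G040600 (6D, 16514549 to 16515345, plus strand) had 1.38 (SE 0.38, DESeq2 FDR 0.0315), the lowest and most precise of the 9. The 3A gene lay level with the H2A genes on 7B and 7D, and the 6D gene lay below them by less than its SE.

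Unshrunk folds with their derived intervals set only the 5A H2B gene apart from the other 8 genes. Its shrunk value of 1.15 lay inside the range of the others, 1.10 to 1.41. Of the 36 pairs among the 9 genes, 8 had intervals that did not overlap, and each of those 8 pairs included TraesCS5A02G384300. No such count was made for other listed genes. For the other 8 genes the lower bounds ran from 0.63 to 1.11 and the upper bounds from 2.13 to 3.21. All estimates come from the same libraries, so these intervals are not independent of each other. Listing required a fold large against its SE, so every interval excluded no change by selection. For genes near the threshold, fold and SE were tied by that selection. Their order by fold and the overlap of their intervals are therefore no separate result, and their folds may be too large.

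The fold of TraesCS5A02G384300 is the least precise of the 9. With a normal shrinkage prior, dividing the unshrunk by the shrunk fold and subtracting 1 gives a constant multiple of the squared SE. That multiple was between 1.82 and 1.86 for 8 of the genes, close to the median of 1.83 over all listed genes. It was 2.23 for TraesCS5A02G384300. Listed genes with an SE above 1 had a median of 2.06, with a range from 1.46 to 3.58. Whether the derived SE, the assumed prior or another assumption is off for such genes was not tested. The authors' deposited table held 33 genes with a log2 fold change above 5 on the positive side, and 29 of them had an SE above 1. Their shrunk values ran from 0.50 to 3.97 with a median of 1.02, and 11 of the 33 exceeded the 1.15 of this H2B gene.

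**Figure D2:**
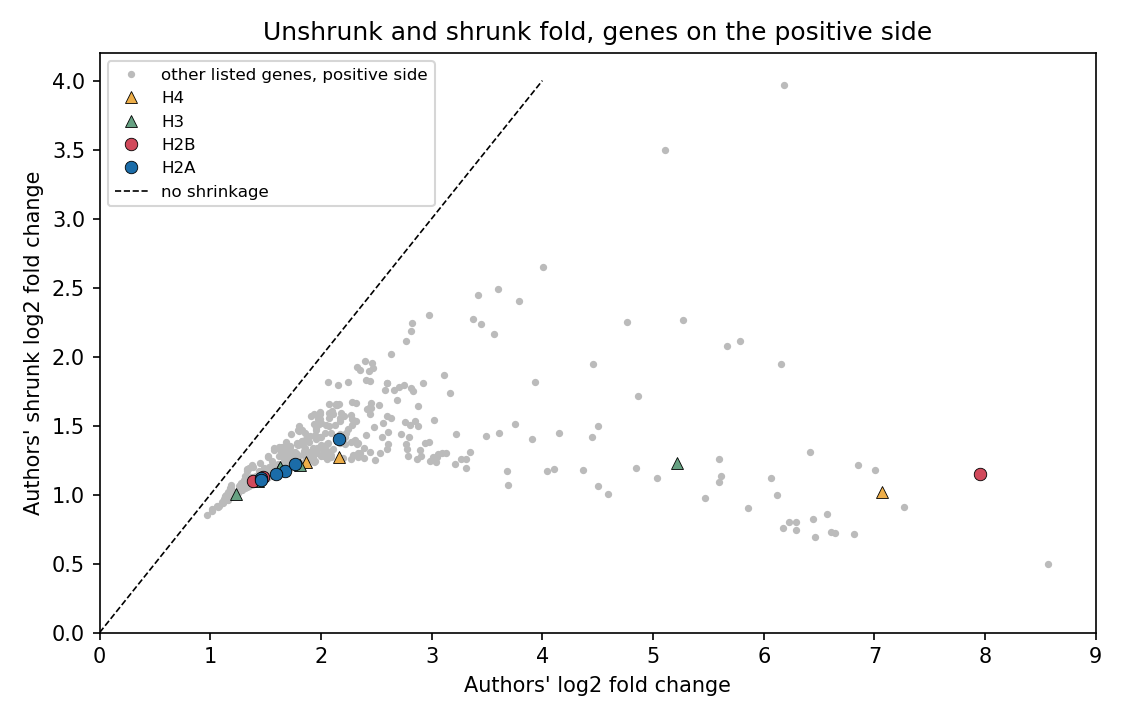
Authors' shrunk log2 fold change (y axis) against their unshrunk log2 fold change (x axis) for the 441 genes on the positive side, with no shrinkage marked by the dashed line. The H2A and H2B genes, drawn as coloured circles, lie among other listed genes at 1.38 to 2.16 on the x axis, except TraesCS5A02G384300 at 7.95, which has a shrunk value of 1.15.

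Most of the H2A and H2B genes stood close to the listing threshold. Of the 9 genes in the authors' deposited table, 1 had an FDR under 0.01, against 41.9% of all listed genes and 38.3% of those on the positive side, while genes under that limit were 0.471% of all tests. An FDR above 0.03, a limit that was not planned, was found for 7 of the 9. Above it lay 29.2% of all listed genes, 31.7% of those on the positive side and 70% of the listed H3 and H4 genes. Ranked by p-value among the 861 genes, 6 of the 9 stood in the last 25%. The median rank of the 9 was 679, against 431 for all listed genes. The H2A genes on 3B, 6D and 7D held ranks 845, 822 and 838.

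TraesCS3B02G610800, the last of the 9 by p-value, had an FDR of 0.0491, and 16 listed genes had a larger one. The 3 genes just before it had FDR values of 0.0488, 0.0489 and 0.0491 and log2 fold changes of 1.51, 3.69 and 1.16. The 3 just after it had FDR values of 0.0492 each and log2 fold changes of -1.13, 6.18 and -1.70. Genes beyond the last listed FDR of 0.0499 were not analysed here.

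**Figure D3:**
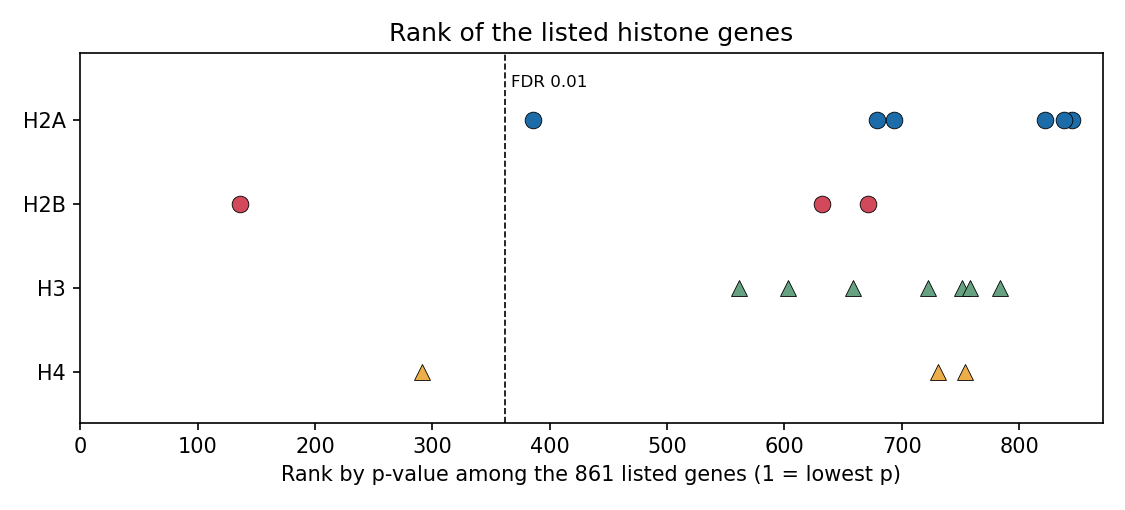
Rank by p-value among the 861 listed genes (x axis, 1 is the lowest p) for each listed H2A, H2B, H3 and H4 gene, with the FDR limit of 0.01 as a dashed line. TraesCS5A02G384300 (H2B, rank 136) and 1 H4 gene (rank 291) lie left of the line, the H2A gene TraesCS5A02G246200 lies just right of it at rank 386, and the other histone genes lie at rank 561 or later.

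The 9 genes were spread over 7 chromosomes, and subgenomes A, B and D of hexaploid wheat carried 3 each. They fell in chromosome groups 3, 5, 6 and 7, with 2, 2, 3 and 2 genes. Groups with 2 listed genes cannot cover all 3 subgenomes, and the 3 genes of group 6 lay on 6B and 6D. The spread over subgenomes was not compared with that of other listed genes. The files do not pair genes across subgenomes, so whether the 7B and 7D genes are counterparts was not tested. All 9 descriptions pointed to different protein records. The genomic span from start to end was 480 to 901 bases, with a median of 797, against 1789 for all listed genes.

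On chromosome 6D an H2B gene and an H2A gene carried neighbouring identifiers, TraesCS6D02G040600 and TraesCS6D02G040700. They lay 7.07 kb apart on opposite strands, with their 3' ends facing each other, and their log2 fold changes of 1.38 and 1.59 in the authors' deposited table differed by less than either SE. TraesCS5A02G384300 had 2 listed genes within 5 gene numbers, counted along the chromosome from the identifiers, both without a description and both on the other side. TraesCS5A02G384100, 180 kb away, had -2.73 (SE 0.49), and TraesCS5A02G383800, 618 kb away, had -1.04 (SE 0.29). The other 6 genes had no listed gene within 5 gene numbers, and their nearest one was 2.03 to 34.5 Mb away. Over all 9 genes the median gap to the nearest listed gene was 2.39 Mb, against 3.47 Mb for other listed genes. How many other listed genes have one within 5 gene numbers was not counted. None of the 9 overlapped another listed gene.

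A further entry with the description histone H2A was not counted among the 9. TraesCS5A02G098400 (5A, 139684687 to 139686449, minus strand) carries the description of TraesCS5A02G098300, a histone H2A gene that it overlaps on the opposite strand. Its log2 fold change in the authors' deposited table was 1.33 (SE 0.38, DESeq2 FDR 0.0449). TraesCS5A02G098300 is not itself listed. The protocol text does not say whether the libraries kept the strand, and whether reads of the 2 genes were separated was not tested. Histone genes also form families of near-identical copies, and no source used here says how reads shared between copies were counted, so the fold of any single copy is uncertain.

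The partner histones of the nucleosome core were listed in similar number, 7 H3 genes and 3 H4 genes, also all positive in the authors' deposited table. Their median log2 fold change was 1.72, with a range from 1.23 to 7.07, beside 1.59 and 1.38 to 7.95 for H2A and H2B. Their shrunk values ran from 1.00 to 1.27, and 1 of the 10 had an FDR under 0.01. Without genes of an SE above 1, the medians were 1.53 for 8 H2A and H2B genes and 1.63 for 8 H3 and H4 genes. The 10 H3 and H4 genes shared 4 protein records among their descriptions, with 1 record for all 3 H4 genes, whereas each H2A and H2B gene had its own. The difference between the H2A and H2B genes and the H3 and H4 genes was not tested, and linker histone H1 had 0 listed genes by description.

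**Figure D4:**
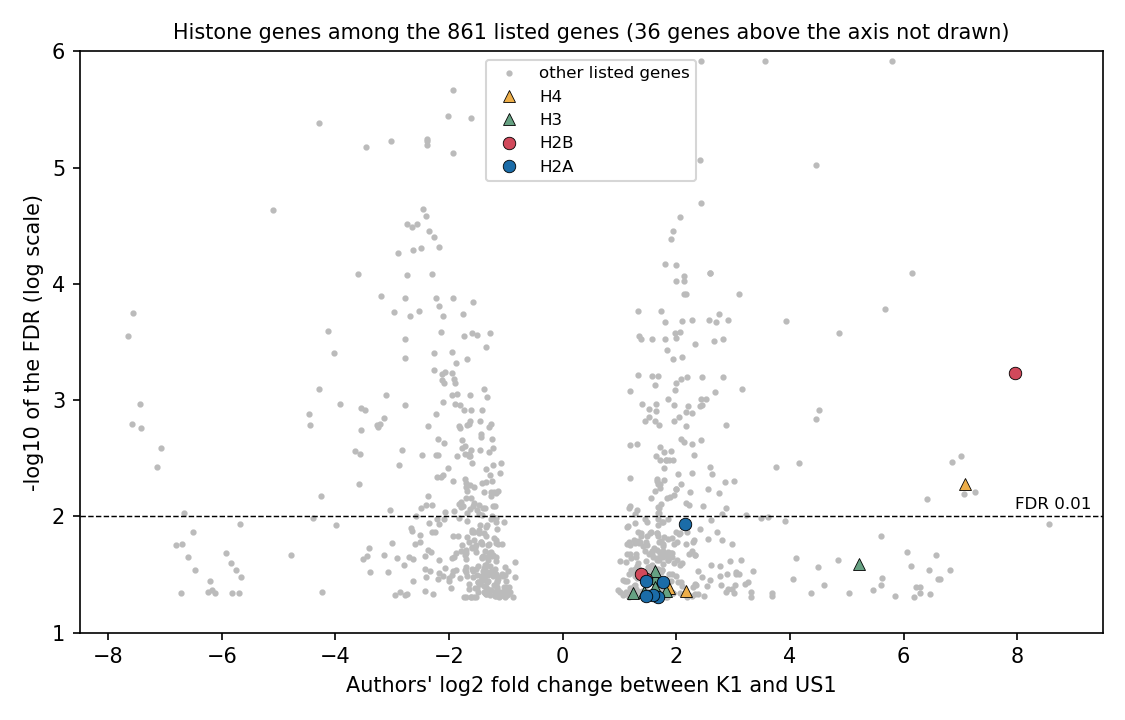
Authors' log2 fold change (x axis) against the -log10 of the DESeq2 FDR (y axis, a log scale) for the 861 listed genes, except 36 above the top of the axis. Circles are H2A and H2B genes, triangles are H3 and H4 genes, and all of these lie on the positive side, most of them below the dashed line at an FDR of 0.01.

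Few other genes of chromatin and DNA copying were listed by description. Histone chaperones, which carry histones to DNA, and chromatin modifiers had 0 listed genes each. The DNA replication list had 1, DNA topoisomerase 2 (TraesCS1D02G260500), which relieves tangles in DNA, at 1.72 (SE 0.42). The cell cycle list had 2, condensin complex subunit 2 (TraesCS6B02G341400), which compacts chromosomes, at 1.75 (SE 0.43) and a tubulin beta chain (TraesCS5A02G534300), a building block of microtubules, at 1.84 (SE 0.53). The histone-fold domain, which occurs in other proteins besides histones, gave 3 genes with log2 fold changes from 4.50 to 6.15. These 6 genes were all positive in the authors' deposited table, against 51.2% of all listed genes. An FDR under 0.01 was found for 4 of them, against 41.9% of all listed genes, and 3 of the 4 were the histone-fold genes. Since 629 of the 861 listed genes lacked a description of their own, a count of 0 does not show absence.

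Genes described as photosynthesis proteins lay on the same side as the histones. The seeds were germinated without light, and whether these genes reflect tissue or light exposure was not tested. All 50 listed genes described as chlorophyll a-b binding, ribulose bisphosphate carboxylase or photosystem proteins were positive in the authors' deposited table. Their median log2 fold change was 2.32. Positive genes were 51.2% of all listed genes and 70.3% of those with a description of their own. The FDR was under 0.01 for 41 of the 50, against 41.9% of all listed genes. Keywords for seed reserves matched 0 listed genes. No expression level is given, so neither the tissue label nor a difference in tissue make-up could be checked from levels, and their part in the histone values was not tested.

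The authors' second deposited table, from a selection named ID, contained 0 of the 9 genes and 0 other H2A, H2B, H3 or H4 genes by description. It lists 52 genes, 0.0433% of the 120099 tests its FDR values imply. Its sole entry with a histone description was the histone-fold gene TraesCS4A02G081000, with a Z-score of -4.38 and an FDR of 0.0229. In the DESeq2 table the same gene had a log2 fold change of 5.27 (SE 0.81), so the 2 columns carry opposite signs for it. The lists share 18 genes, and whether the columns are oriented in opposite ways throughout was not analysed here.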

How the data were processed

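Messenger RNA libraries from 3 ultrasound and 3 control samples were grouped by their titles. Per the submitters' processing notes, the authors used STAR 2.7.10a, DESeq2, Trim Galore 0.6.7 and FastQC 0.11.9. The role of each tool, the annotation and the genome build are not stated in the sources used here. Per the file headers, the first table holds log2 fold changes, both unshrunk and shrunk, and p-values with their FDR from the authors' DESeq2 comparison. The second, per the file headers, holds a Z-score of the difference, which is a score per gene, besides p-values and FDR. Depth is unknown, and the planned edgeR test was not run because no counts were analysed here.

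The 9 genes have a description starting with "Histone H2A" or "Histone H2B" and the same gene in the Probe and ID columns. All 9 were named, as were the histone-fold, replication and cell cycle genes and listed genes within 5 gene numbers of a member. Photosynthesis, H3 and H4 genes were summarised without names. The members and lists were chosen with earlier results of these data known. Each SE was obtained by dividing the size of the fold on the log2 scale by the normal deviate that a two-sided reading of its p-value implies. The number of tests was the most frequent value of FDR times rank over p, a calculation tested on simulated data. The RefSeq gene table matched 0 of the 861 identifiers. Positions are as deposited. Python 3.11.15, pandas 2.3.3, scipy 1.17.1 and matplotlib 3.10.9 were used. Alternatives were a stricter FDR, shrunk folds, leaving out members of an SE above 1, 1 probe per overlapping group and a looser reading of the descriptions.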

Additional observations from a re-analysis of the deposited data

How the results depend on the processing

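At an FDR under 0.01, 1 of the 9 H2A and H2B genes was left, with a log2 fold change of 7.95, and 1 of the 10 H3 and H4 genes was left. Taking any description that holds the letters H2A or H2B, whichever gene it belongs to, gave 11 entries, the 2 additions being the opposite-strand entry on 5A and an alcohol dehydrogenase named ADH2A on the negative side. The median log2 fold change of 1.59 became 1.15 with the authors' shrunk values and 1.53 without TraesCS5A02G384300, the member of an SE above 1. The 6 histone-fold, replication and cell cycle genes numbered 4 at an FDR under 0.01, and 3 of these were described only by the histone-fold domain. Counting 1 probe per overlapping group could change nothing, since none of the 9 genes overlaps another listed gene. No paired analysis was possible because the tables hold no values per library, and no replicate could be left out for the same reason.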

Other observations

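A further listed gene, which has no description of its own, was picked after its value was seen, so it supports nothing. In the authors' deposited table, TraesCS1D02G260600 overlaps the DNA topoisomerase 2 gene TraesCS1D02G260500 on the opposite strand, as TraesCS5A02G098400 overlaps its H2A gene. It had a log2 fold change of 1.67 (SE 0.41), beside 1.72 (SE 0.42) for the topoisomerase gene, and in this pair both genes were listed. Whether reads of both genes were separated was not tested.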
